A study of Mus musculus with 4 samples.

Results

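Among the isoforms of the mouse retina, 450 spliced isoforms were filed under a chromosome position instead of an Ensembl gene identifier. They were chosen as isoforms whose identifier ends in a position and whose deposited model has at least 2 exons. The rule named no count, but all 36426 isoforms with a model had counts in rods. None of the 7899 isoforms without a model had any, so the 450 are in effect limited to isoforms seen in rods. The table listed 44325 isoforms, of which 36426 had a model and 33517 had a spliced model, so the 450 were set beside the other 33067 spliced isoforms, all filed under Ensembl genes. A position named 3622 isoforms in all, and the remainder were 2323 single-exon isoforms and 849 isoforms without a model. The 450 lay at 424 loci, and each locus name equalled the model's start rounded down to a multiple of 1000.

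The data came from long-read single-cell RNA sequencing of 4 retinal libraries from wild-type male C57BL6/J mice. There were 2 libraries without enrichment, 1 from postnatal day 40 and 1 with no age in the labels. A library from postnatal week 8 was labelled with CD73 enrichment, and 1 from postnatal month 4 with CD90.2 enrichment. The protocol used CD73 to remove photoreceptors and CD90.2 to retain labelled neurons, so these steps changed which cells entered. The count table held 1 column for each of 6 cell classes, namely amacrine cells, bipolar cells, cones, Müller glia, rods and retinal ganglion cells, with all libraries pooled. There was therefore 1 sample per class and no replicate, classes could not be tested against each other, and class cannot be told apart from library, age or enrichment. In pooled columns, fewer cells of a type and less RNA per cell cannot be told apart either.

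A spliced RNA joins exons at a donor site and an acceptor site, and an exon is skipped when the donor of an earlier exon is joined to the acceptor of a later one. Skipping a length that is not a multiple of a codon shifts the reading frame of what follows. Neurons, photoreceptors included, make extensive use of alternative exons, and transcription that continues into the next gene can yield RNAs that join exons of neighbouring genes. A long read can cover both ends of an RNA and the junctions between them.

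The junctions that set these isoforms apart can be shown by the annotated exon ends that the models join. For isoforms chosen to stand for skipping in different classes, the lower-case letters are the last 15 bases of the upstream exon and the capitals are the first 15 bases of the downstream exon, 5′ to 3′ in the RNA, taken from GENCODE M21 transcripts (GRCm38). The first line of each trio is the junction of the isoform, and the next lines are the annotated junctions that use its donor and its acceptor.
Mthfsl exon 1 to exon 3: ctcctcacgcagaagGTGGACTTGACCTCA
Mthfsl exon 1 to exon 2: ctcctcacgcagaagGTGATTGCCCACAAT
Mthfsl exon 2 to exon 3: aggccttatccactgGTGGACTTGACCTCA
Ankrd33 exon 1 to exon 4: accctagagtcccagGTGCTGACCTGAGCT
Ankrd33 exon 1 to exon 2: accctagagtcccagACAGGCCTCATGGTT
Ankrd33 exon 3 to exon 4: ccctccttatggcagGTGCTGACCTGAGCT
Rasgrf1 exon 1 to exon 3: tccggcgagaaacagGTACCGTTGCTCCAG
Rasgrf1 exon 1 to exon 2: tccggcgagaaacagCGTCATAGCAGGAGT
Rasgrf1 exon 2 to exon 3: ttaggacagagatcgGTACCGTTGCTCCAG
Klf2 exon 1 to exon 3: cgcggcctccaggagGTGAGAAGCCTTATC
Klf2 exon 1 to exon 2: cgcggcctccaggagCGCTGGCCGCGAAAT
Klf2 exon 2 to exon 3: tgcgtacacacacagGTGAGAAGCCTTATC
In each trio the isoform's sequence takes its lower-case part from 1 annotated junction and its capitals from the other. This holds by construction, since every line was built from annotated exon ends, and no read sequence was examined. The skipped stretch was 262 bases in Mthfsl, 271 in Ankrd33, 145 in Rasgrf1 and 817 in Klf2, none of them a multiple of 3.

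For isoforms that join genes, the lower-case letters are the end of an exon of the upstream gene and the capitals the start of an exon of the downstream gene. These were chosen as joins within families of alike genes, the first for its high counts.
Gm14435 to Zfp967: atctcacagctatagGTTACAGTTGGGAAG
Ifit3 to Ifit3b: gatcaccatcatgagTGAGGTCAACCGGGA
The introns implied were 97366 bases long on chromosome 2 and 27826 bases on chromosome 19, respectively.

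None of the 450 isoforms held a junction annotated in GENCODE M21, whereas their splice sites were nearly all known. Of 966 splice sites, 961 (99.5%) were in the annotation, so the pairing of sites, not the sites themselves, lay outside it. Having no annotated junction was rare elsewhere, at 9 of 33067 spliced isoforms of Ensembl genes (0.0272%), although 6997 of those (21.2%) had at least 1 unannotated junction. How the identifiers were assigned is not given in the sources used here, so a naming step that itself looked at annotated junctions cannot be told apart from a property of these RNAs. Of 481 distinct junctions, 348 (72.3%) used sites that deposited Ensembl-gene models also used, and 24 (4.99%) occurred as such in those models.

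Exon skipping was the most common form. In 343 isoforms (76.2%), holding 95003 counts, both sites of the unannotated junction belonged to 1 annotated transcript, with 1 or more exons between them. Sites of 1 gene that never occur together in a transcript were joined in 49 isoforms with 13653 counts, and sites of different genes in 54 isoforms with 12364 counts. Only 4 isoforms, with 3283 counts, used a site outside the annotation. Counted by junction, skipping made up 75.7% here against 81.6% of the 6453 unannotated junctions in Ensembl-gene isoforms, and joins between genes 12.9% against 8.18%.

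**Figure D1:**
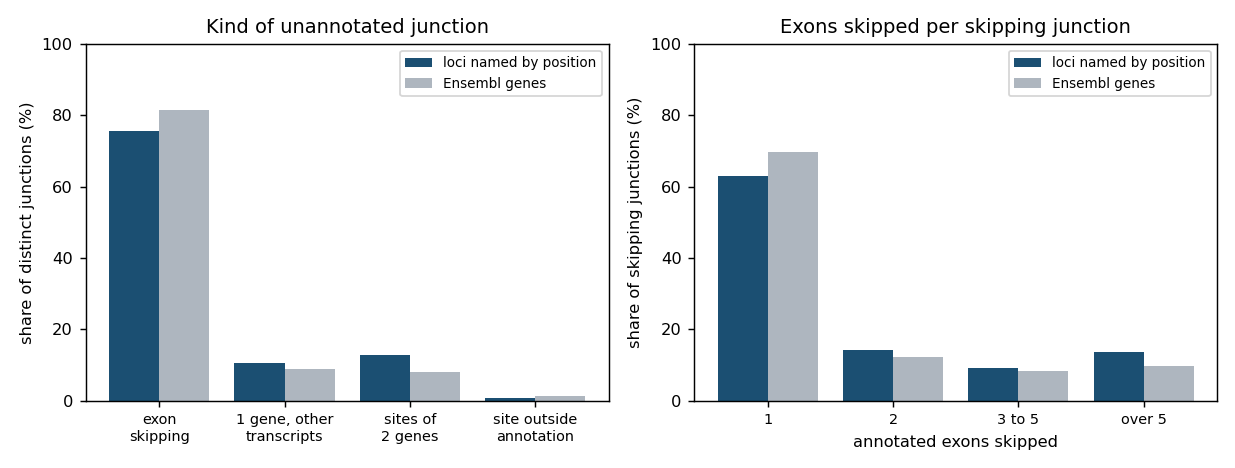
Kinds of unannotated junction as a percentage of distinct junctions (left) and number of annotated exons skipped as a percentage of skipping junctions (right), for the isoforms at loci named by position (dark bars) and for isoforms of Ensembl genes (grey bars). Skipping leads in both sets, at 75.7% and 81.6%, and 1 skipped exon leads among skips, at 62.9% and 69.8%.

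Most skips removed a single exon. Of the 343 skipping isoforms, 209 left out 1 exon, 51 left out 2 and 83 left out 3 or more, and the median skipped length was 188 bases. Skips of over 5 exons made up 13.7% of skipping junctions here against 9.69% in Ensembl-gene isoforms. The longest skip removed 35 exons of Cpsf1, which encodes a subunit of the complex that cleaves pre-mRNA before polyadenylation. Among the 332 skipping isoforms with 2 exons, 196 (59.0%) joined the first exon of the annotated transcript to its last, and for 121 that transcript had 3 exons.

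The skips kept the reading frame about as often as other unannotated skips. Both sites lay in coding sequence in 163 skipping isoforms, and the skipped length was a multiple of 3 in 56 and not in 107. By junction, 61 of 176 coding skips (34.7%) kept the frame, against 1413 of 4064 (34.8%) in Ensembl-gene isoforms. In 103 isoforms the annotated start codon lay in the upstream exon, so the frame could be followed across the junction. It was followed through all later exons of the annotated transcript, also where the 2-exon model of the isoform ended before them. Some of these frames therefore run past the end of the isoform, as for Dip2b, with 1508 codons. Of the 73 whose skip shifted it, 72 reached a stop codon within the annotated exons, a median of 13 codons after the junction (range 0 to 121). The open frame followed in this way had a median of 17.8% of the annotated codons, against 50.2% for skips that kept the frame.

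Single isoforms show what this would mean for the open frame predicted from the annotated start codon. Mthfsl, related to the folate enzyme methenyltetrahydrofolate synthetase, had 203 codons in the annotated transcript and 69 across the skipping junction. Ankrd33, an ankyrin repeat protein of photoreceptors, went from 337 codons to 10. Rasgrf1, an exchange factor that activates Ras, went from 178 codons in the short annotated transcript used for comparison to 108. Klf2, a zinc-finger transcription factor known from endothelium, went from 354 codons to 77, and Brk1, a subunit of the actin-regulating WAVE complex, from 75 to 43. Cops9, a small subunit of the COP9 signalosome, kept nearly its length, with 55 codons instead of 57, although its frame was shifted. Ndufb10, a subunit of respiratory complex I, kept its frame and had 83 codons instead of 176. These frames are predictions from annotated sequence, and no protein was measured.

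Among the 54 isoforms that joined different genes, 23, with 9265 of the 12364 counts, joined genes that shared at least 1 stretch of 31 bases in their annotated transcripts. In 4 of the 23 the spans of the sharing pair overlapped, as for Mtcp1 and Cmc4 (1665 counts), so the shared bases can be the same genomic bases. The other 19 joined separate genes and held 7486 counts (60.5%). Whether their reads could be placed on more than 1 gene was not examined, so their values are uncertain. Shared stretches could be few, as for Zfp729b and Gm26965, which had only 1. The most counted of the 19, with 4697 counts, joined 2210418O10Rik, Gm14435 and Zfp967, which lie in a cluster of zinc-finger genes on chromosome 2. Its first gene pair shared 121 such stretches and its second pair 187. Ifit3 and Ifit3b, interferon-induced genes, shared 61.8% of these stretches, Mfap1a and Mfap1b 66.4%, and Alms1 and its pseudogene Alms1-ps1 67.8%. Joins of major histocompatibility genes of the H2-Q group were counted 80 and 12 times.

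The other 31 joined genes that shared no 31-base stretch and had 3099 counts. The spans of 9 pairs overlapped, 28 had no coding gene between them on the strand, and separate pairs were a median of 6614 bases apart. Hbb-y and Hbb-bs, embryonic and adult beta-globin genes with 2 coding genes between them, were joined in an isoform of 62 counts.

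The isoforms were short and simple. Of the 450, 419 (93.1%) had 2 exons, 29 had 3 and 2 had 4, whereas isoforms of Ensembl genes had a median of 7 exons and only 4.34% had 2. All 450 lacked an annotated junction, which an isoform with few junctions meets more easily than one with many. Their low exon number therefore cannot be told apart from how the set was filed. The median exonic length was 845 bases (range 140 to 3851) against 1778. Among isoforms with 2 exons the medians were 853 and 1300 bases, so the difference in length remained at equal exon number. The 4-exon isoforms were 1 of Bspry, with 11 counts, all in rods, and 1 that joined Coro1b to the Gpr152 and Ptprcap region, with 17 counts.

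Their counts were low beside Ensembl-gene isoforms as a whole. The 450 held 124303 of 149645836 counts (0.0831%), with a median of 28 counts (range 6 to 26311), against 90 for isoforms of Ensembl genes and 37 for those Ensembl-gene isoforms that lack an annotated transcript identifier. Among isoforms with 2 exons the medians were 28 here, 111 for Ensembl genes and 21 for Ensembl-gene isoforms without a transcript identifier, so the direction depended on the set compared. At least 100 counts were reached by 116 isoforms and at least 1000 by 23. The most counted held 21.2% of all counts on the set, and the top 10 held 49.6%. Of 424 loci, 400 held 1 spliced isoform, 22 held 2, and the loci of Mthfsl and of Coro1b, Gpr152 and Ptprcap held 3 each.

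Although filed by position, the isoforms lay within known genes. All 450 overlapped an exon of an M21 gene on their strand, and that gene was protein coding for 413 (91.8%), a lincRNA for 14 and an antisense RNA for 14. Of the deposited Ensembl-gene models, 410 isoforms (91.1%) shared exonic bases with at least 1 on the same strand, and 63 with 2 or more. For 222 (49.3%) every exonic base fell within the deposited gene. The remaining 40 included isoforms of Madd, Erich6, Atp2a2, Spata20 and the join of Ifit3 to Ifit3b, the 5 with the most counts. An annotated exon on the opposite strand was overlapped by 71 isoforms, and since use of strand in counting is not given in the sources used here, their counts are uncertain.

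The overlapped genes were counted in lists of retinal and housekeeping genes. The 410 isoforms fell on 376 genes, 3.08% of the 12223 Ensembl genes with a spliced model. None fell on the 21 listed phototransduction genes or on 89 ribosomal protein genes, and at that share of all genes lists of this size can hold few or none. Among 101 genes of oxidative phosphorylation 3 were overlapped, Ndufb3, Ndufb10 and Atp5d, a share of 2.97% that is close to that of all genes. Of the marker lists for 11 cell types, only that of bipolar cells had an overlapped gene, Isl1, a homeodomain factor, whose isoform had 13 counts, 11 of them in bipolar cells.

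The class labels were checked against these markers. On the CPM scale (counts scaled to a class total of 1000000), 35 of the 36 markers listed for the 6 classes peaked in their own class. The Müller glia column was also highest for 6 of 6 microglial markers (1899 CPM summed), 5 of 6 pigment epithelium markers (9480 CPM), 4 of 4 astrocyte markers in the table (142 CPM, against 0 to 8.55 elsewhere) and all 3 vascular markers in the table (261 CPM, against 0 to 12.4 elsewhere). Cldn5, Cdh5 and Pdgfrb were not listed there. The amacrine markers summed to 428 CPM in the amacrine column, where ganglion cell markers reached 382 CPM. The 4 of 6 horizontal cell markers in the table summed to 221 CPM in the amacrine and 214 CPM in the ganglion cell column. Lhx1 and Sept4 were not listed there. Column totals ran from 3509890 counts in ganglion cells to 55437340 in rods. All 36426 models had at least 1 rod count and all 7899 isoforms without a model had none, so detection in rods is 100% here and in the background by what the annotation holds. Which filter gave this is not given in the sources used here.

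The most counted isoform was the 2-exon isoform of Mthfsl, on the minus strand at chr9:88688606-88719813, which skips exon 2. Rods had 16633 counts of it, cones 1443, bipolar cells 4112, amacrine cells 3327, Müller glia 656 and ganglion cells 140. Scaled to depth this was highest in rods (300.0 CPM) and cones (197 CPM) and lowest in ganglion cells (39.9 CPM). Together with the other isoforms of its gene it gave a share that moved in the same order: 60.6% of the gene's counts in rods (exact 95% interval from 60.0% to 61.1%), 53.7% in cones and 43.9% in bipolar cells. Müller glia had 31.4%, amacrine cells 30.1% and ganglion cells 23.6% (20.3% to 27.3%). The intervals of Müller glia and amacrine cells overlapped and those of the other neighbours did not, but intervals cover counting error only and no replicate spread was available. Both further spliced isoforms of the locus used an exon of 73 bases before the same last exon and had 3891 and 1386 counts. The former used the donor of the 2-exon isoform, and the latter the donor of another annotated first exon, of 82 bases.

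Photoreceptors led in several other abundant isoforms. The isoform of Madd, an exchange factor for Rab3 on synaptic vesicles, skipped 1 exon at chr2:91177637-91182889 and had 2776 counts in rods, 488 in cones, 552 in bipolar cells, 238 in amacrine cells, 12 in ganglion cells and 4 in Müller glia. That was 66.8 CPM in cones and 50.1 CPM in rods, against 19.0 CPM in bipolar cells and under 5 CPM in amacrine cells, Müller glia and ganglion cells. Ankrd33 had 2969 counts in rods and 104 in cones (53.6 and 14.2 CPM), 53 in bipolar cells, 3 in amacrine cells, 14 in Müller glia and none in ganglion cells, where a count of 0 allows up to 0.855 CPM. It made up 10.4% of the gene's counts in rods and 2.11% in cones. Erich6 stood highest in cones, with 1430 counts (196 CPM) against 394 in rods (7.11 CPM), 68 in bipolar cells, 30 in amacrine cells, 23 in Müller glia and 12 in ganglion cells. The gene C030006K11Rik, which overlaps Lrrc24, had 2068 rod counts and 384 cone counts (37.3 and 52.6 CPM), and its 2-exon isoform held at least 94.1% of the gene's counts in every class.

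Inner retinal classes led in others. The zinc-finger cluster isoform had 3266 counts in amacrine cells and 235 in ganglion cells, 67.7 and 67.0 CPM, against 20.5 CPM in bipolar cells and 8.14 CPM in rods. Rasgrf1 had 1976 counts in amacrine cells, 20 in Müller glia, 19 in rods, 19 in ganglion cells, 6 in bipolar cells and 0 in cones. Amacrine cells thus had 41.0 CPM and ganglion cells, the next, 5.41 CPM. Ank2, encoding ankyrin-B, which ties membrane proteins to the cytoskeleton, had 1698 counts in amacrine cells and 87 in ganglion cells (35.2 and 24.8 CPM), 132 in bipolar cells, 7 in rods, 2 in Müller glia and 1 in cones. Brk1 had 1513 counts in amacrine cells (31.4 CPM) and at most 7.93 CPM in any other class.

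Further abundant isoforms were spread over the classes. Ndufb3, another complex I subunit, had 2450 counts in rods, 423 in cones, 1253 in bipolar cells, 1363 in amacrine cells, 155 in Müller glia and 25 in ganglion cells, between 7.12 and 57.9 CPM, and never exceeded 4.52% of its gene's counts. Phpt1, a histidine phosphatase, ranged from 13.8 CPM in rods to 40.7 CPM in ganglion cells, and Cops9 from 7.83 CPM in Müller glia to 24.5 CPM in rods.

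**Figure D2:**
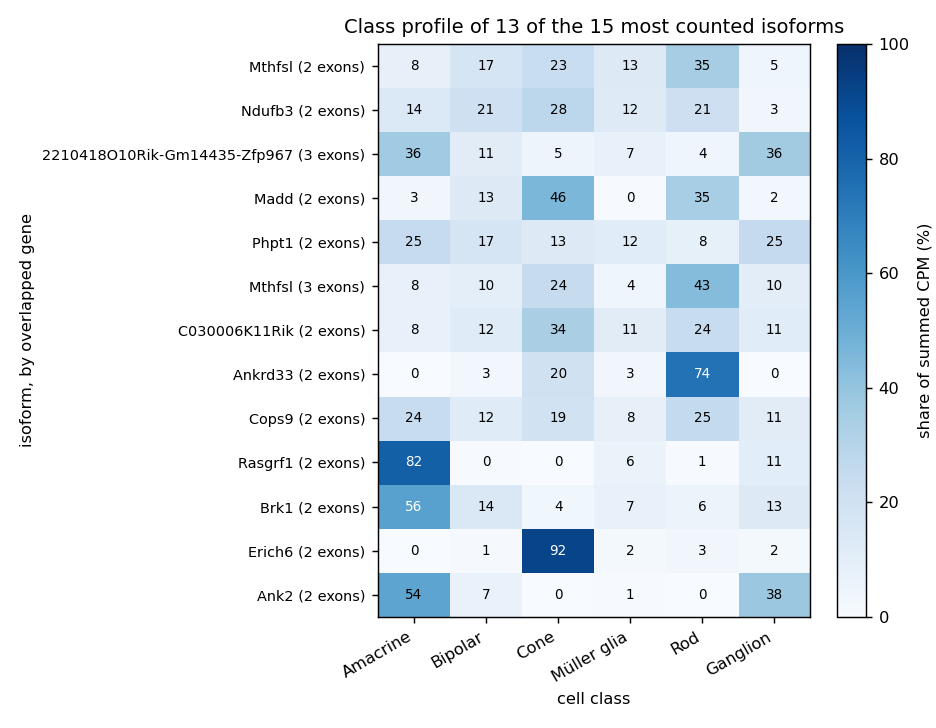
Share of each isoform's summed CPM found in each class (percent, colour and printed number) for 13 of the 15 most counted isoforms, one row each, with the overlapped gene and exon number. Erich6 has 91.9% in cones and Rasgrf1 81.6% in amacrine cells, whereas the Ndufb3 and Cops9 isoforms are spread over the classes.

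Summed over the set, rods and cones gave these isoforms the largest share of their counts. Isoforms without rod counts had no model and could not enter the set, which favours rods in this comparison. The share was 0.104% in rods (exact 95% interval from 0.103% to 0.105%) and 0.0993% in cones (0.0971% to 0.102%). Bipolar cells followed at 0.0701% and amacrine cells at 0.0698%, then Müller glia at 0.0625% (0.0605% to 0.0645%) and ganglion cells at 0.0481% (0.0458% to 0.0504%). The Mthfsl isoform alone accounted for 28.9% of the rods' counts on the set. Without it the share was 0.0796% for cones, 0.0737% for rods, 0.0629% for amacrine cells, 0.0559% for bipolar cells, 0.0518% for Müller glia and 0.0441% for ganglion cells, so that cones stood above rods and amacrine above bipolar cells. Among isoforms with 3 or more exons the lead of rods and cones did not hold. There amacrine cells had 0.0110%, ganglion cells 0.0107%, rods 0.00860% and cones 0.00749%. The most counted of these isoforms is the zinc-finger cluster isoform, with 4697 counts and its highest CPM in amacrine and ganglion cells. The order without it was not taken, and its values are uncertain, as given above.

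**Figure D3:**
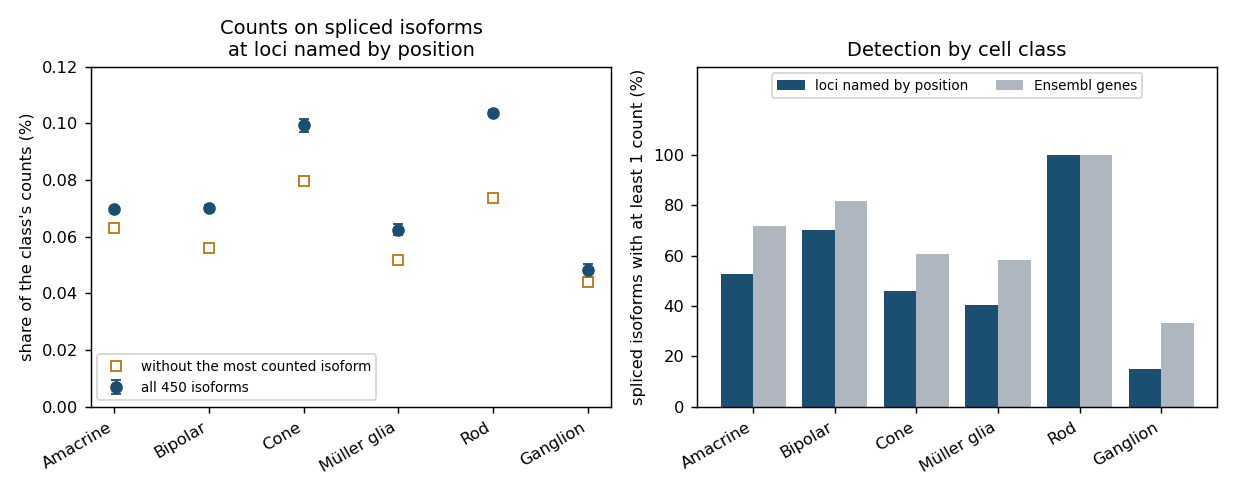
Left, percentage of each class's counts on the 450 isoforms (filled circles, bars are exact 95% intervals for counting error) and without the most counted (open squares). Right, percentage of spliced isoforms with at least 1 count per class, for the 450 (dark) and for Ensembl genes (grey); rods stand at 100% by construction and ganglion cells lowest, at 14.9% and 33.4%.

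In each class other than rods, fewer of these isoforms were seen than of Ensembl-gene isoforms. At least 1 count was found for 315 in bipolar cells (70.0%, against 81.6%), 237 in amacrine cells (52.7%, against 71.8%), 206 in cones (45.8%, against 60.5%), 181 in Müller glia (40.2%, against 58.3%) and 67 in ganglion cells (14.9%, against 33.4%). Only rods had counts for 86 isoforms (19.1%, against 8.81%), and all 6 classes for 46 (10.2%, against 26.5%). The gap was smaller against Ensembl-gene isoforms without a transcript identifier, of which ganglion cells showed 18%, Müller glia 40.7%, cones 46.5%, amacrine cells 58.9% and bipolar cells 72.5%. If every column had the total of ganglion cells, the expected number seen would be 242.8 for rods, 207.1 for bipolar cells, 173.6 for cones, 163.6 for amacrine cells and 157.5 for Müller glia, against 67 for ganglion cells. The rod value there still comes from a set that leaves out isoforms without rod counts.

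Isoforms with 10 or more counts and 80% or more of their summed CPM in a single class were counted as class-restricted. Of the 371 with enough counts, 114 (30.7%) were so called, against 19.5% of all spliced isoforms with a model. Rods had 54 (14.6%, against 8.14%), amacrine cells 21 (5.66%, against 3.0%), bipolar cells 19 (5.12%, against 2.03%), ganglion cells 6 (1.62%, against 1.22%) and cones 5 (1.35%, against 1.04%). Müller glia, with 9, were the exception, at 2.43% against 4.01%. These class values were not matched for counts, as 255 of the 371 had 10 to 99 counts, against 14247 of 30388 in the background. In both sets every isoform had rod counts, since isoforms without them had no model. The gap to the background was smaller at higher counts: with 10 to 99 counts 102 of 255 (40.0%, against 32.1%) were restricted, with 50 or more 21 of 172 (12.2%, against 9.93%), and with 100 or more 12 of 116 (10.3%, against 8.29%). Ensembl-gene isoforms lacking an annotated transcript identifier stood between, at 25.5%.

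**Figure D4:**
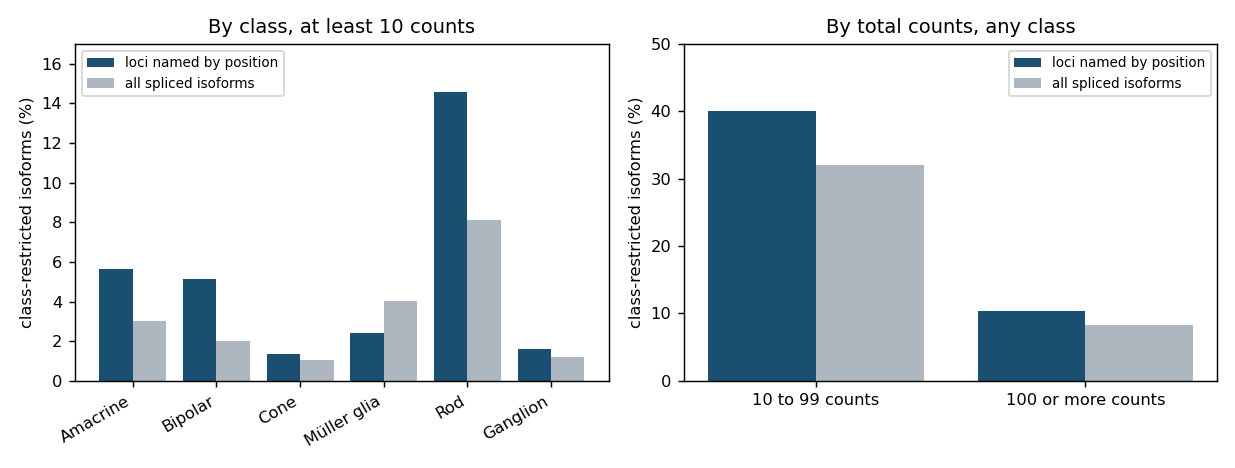
Percentage of isoforms called class-restricted, by class among those with at least 10 counts (left) and by total counts (right), for isoforms at loci named by position (dark) and all spliced isoforms (grey). Rods lead with 14.6% against 8.14%, and at 100 or more counts the sets stand at 10.3% and 8.29%. The values by class are not matched for counts.

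The restricted isoform with the most counts differed in kind between classes. In bipolar cells it was that of Rsph10b, a homologue of a radial spoke protein of cilia, with 772 of 915 counts and 83.2% of its summed CPM there. In Müller glia it was that of Klf2, with 305 of 563 counts and 85.1% of CPM. Vascular markers were highest in the same column, as given above, and their part in the Klf2 value was not tested. In rods it was that of Meig1, a gene of sperm formation, with 329 of 349 counts and 80.5% of CPM, and in ganglion cells that of Nupr1l, with 22 of 70 counts and 81.1% of CPM. Rasgrf1 and Erich6, described above, led in amacrine cells and cones. Spata20, a spermatogenesis gene overlapped by no deposited model, had 716 of 727 counts in amacrine cells and 11 in rods.

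The class in which an isoform was highest matched that of its gene about as often as for other isoforms. Of 335 isoforms with at least 10 counts and an overlapped gene, 120 (35.8%) had their highest CPM in the same class as the gene's other counts. The share was 40.3% for Ensembl-gene isoforms and 39.4% for those without a transcript identifier. At 10 to 99 counts it was 37.1% here and 37.0% for the latter. Among the 98 restricted isoforms with an overlapped gene, the gene was highest in that class for 54 (55.1%) and itself restricted to it for 11 (11.2%). The same shares were not taken over restricted Ensembl-gene isoforms, so these values cannot be called high or low. Rasgrf1 and Klf2 were highest in the same class as their genes, Nupr1l was highest in ganglion cells and its gene's other counts in rods.

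Most of these isoforms were minor products of their genes. The share of a gene's counts was taken as the isoform's counts over those of the gene's Ensembl-filed isoforms plus its spliced isoforms filed by position. In 313 isoforms of 1 gene whose gene had at least 100 counts its median was 5.08% (quartiles 3.04% and 11.5%). The share reached 10% in 88 and 50% in 17. The size of the share was not set beside that of Ensembl-gene isoforms, so a low share cannot be called particular to these isoforms. Where at least 2 classes had 100 or more gene counts, in 177 isoforms, the highest and the lowest class differed by a median of 6.16 percentage points, by at least 25 points in 19 (10.7%) and by at least 50 points in 7 (3.95%). The same measure over Ensembl-gene isoforms had a median of 8.30 points, with 16.0% at 25 points or more and 4.19% at 50 or more. For those without a transcript identifier it was 7.53 points, 11.1% and 2.42%, so differences of this size were not particular to isoforms filed by position. The 7 were those of Gtpbp2, Ank2, Smug1, Scamp5, Ube4a, Alkbh7 and Atf4, picked out after their values were seen.

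Amacrine cells stood apart in several of these. For Gtpbp2, a GTPase that helps rescue stalled ribosomes, the 2-exon isoform at chr17:46161049-46162158 took 88.8% of 1139 gene counts in rods (exact 95% interval from 86.8% to 90.5%) and 88.7% of 639 in bipolar cells (86.0% to 91.1%), but 16.1% of 255 in amacrine cells (11.8% to 21.2%). For Scamp5, a membrane protein of secretory vesicles, the share was 71.1% of 197 gene counts in bipolar cells and 60.4% of 1143 in rods, against 13.4% of 581 in amacrine cells. For Alkbh7, a mitochondrial AlkB homologue, it was 71.3% of 1564 in rods (69.0% to 73.5%), 41.8% of 182 in bipolar cells and 19.7% of 294 in amacrine cells (15.3% to 24.7%). Each of these isoforms was thus a minor product in amacrine cells and the main product in rods.

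The order was opposite for Ank2. Its 2-exon isoform took 67.1% of 2529 gene counts in amacrine cells (exact 95% interval from 65.3% to 69.0%) and 57.2% of 152 in ganglion cells (49.0% to 65.2%). It took 10.9% of 1208 in bipolar cells and 0.261% of 2682 in rods (0.105% to 0.537%). The gene was counted in rods too, but hardly ever as this isoform. Ube4a, a ubiquitin ligase, likewise stood at 66.7% of 111 counts in amacrine cells against 50 of 455 counts in rods. Smug1, an enzyme that removes uracil from DNA, had all of 106 counts in amacrine cells, 70.5% of 475 in rods and 33.3% of 117 in cones. Atf4, a stress-response transcription factor, had 59.7% of 119 in bipolar cells, 17.7% of 823 in rods and 8.70% of 115 in amacrine cells.

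**Figure D5:**
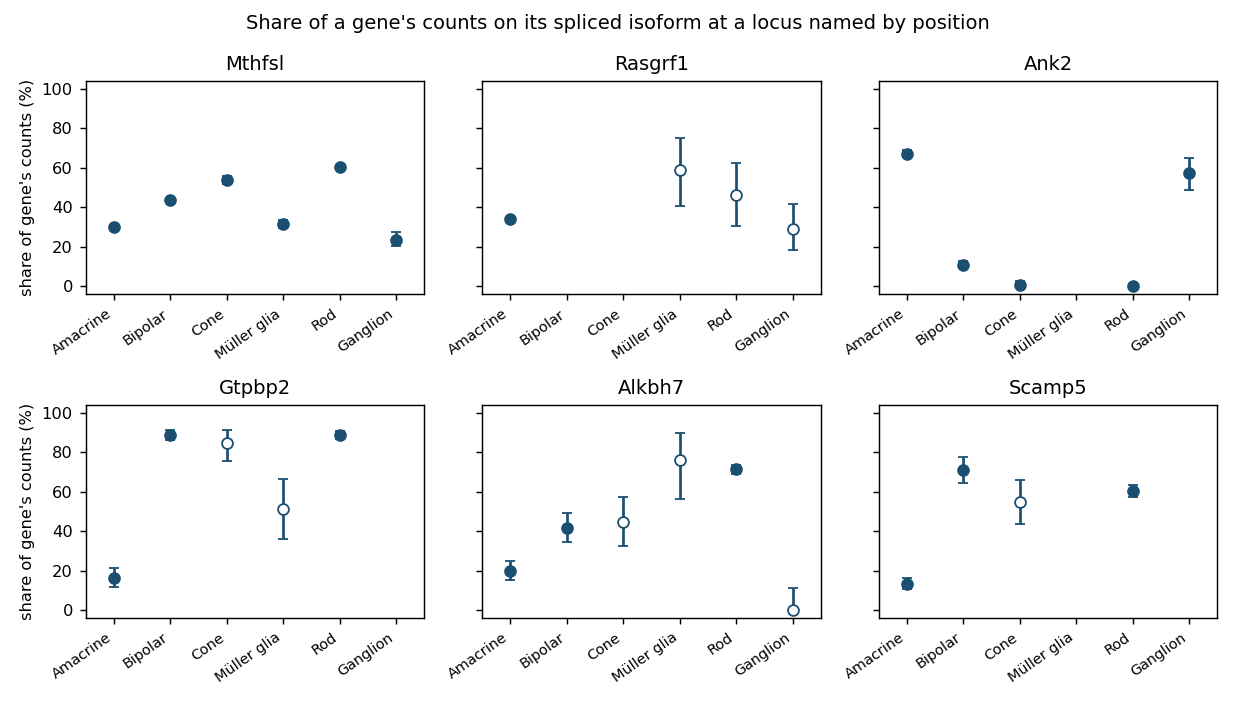
Share of a gene's counts (percent) on its most counted spliced isoform filed by position, per cell class, for 6 genes; bars are exact 95% intervals for counting error, open circles mark classes with fewer than 100 gene counts and classes with fewer than 20 are left out. Ank2 falls from 67.1% in amacrine cells to 0.261% in rods, and Gtpbp2, Alkbh7 and Scamp5 are lowest in amacrine cells among classes with 100 or more gene counts.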

How the data were processed

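Long-read RNA sequencing of dissociated mouse retinas gave isoform models and counts per cell class. The deposited counts are whole numbers per isoform and cell class, not normalized, with 1 column per class; the columns carry no library. Whether they count reads or molecules, how cells were typed and which filters were used is not given in the sources used here. Models are from FLAIR, per the source column of the deposited annotation, and the build is mm10 per the submitters' processing notes. Other deposited values used are 1-based coordinates.

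Members, gene lists and comparisons were chosen with earlier results of these data known. Junctions were compared with GENCODE M21 (GRCm38), gene identifiers being matched without version. Where a skip matched several transcripts, the one with fewest skipped exons was used. CPM is counts scaled to a column total of 1000000. The overlapped gene was the deposited Ensembl gene sharing most exonic bases on the strand; single-exon isoforms filed by position were left out of gene shares, which needed 100 gene counts, in all or per class compared; isoforms joining genes were left out of these counts. Intervals are exact Clopper-Pearson 95% and, like limits from 0 (3 counts), cover counting error only. The 15 most counted isoforms, the leading restricted isoform per class, and those with most exons, the most isoforms at a locus, several overlapped genes or none were named. Scalings of the columns by trimmed means or median ratios are not reported here. The calling of restricted isoforms was tested on simulated data. Python 3.11.15 was used. Of the isoforms the naming rule gave, 2 are not reported here, though they remain in all totals.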

Additional observations from a re-analysis of the deposited data

How the results depend on the processing

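The number of class-restricted isoforms (114) was 169 with no minimum on counts. It fell to 21 of 172 with a minimum of 50 counts (12.2%, against 9.93% of all spliced isoforms), 56 at a share of 95%, 22 after thinning all classes to the depth of ganglion cells, and 6 among isoforms with 3 or more exons. Fewer isoforms reach the minimum under these settings, other than at the 95% share. Among the alternative settings, the share over all spliced isoforms was taken only for the minimum of 50 counts. Whether the excess over all spliced isoforms holds at the others was not tested. At 5 or more counts, 110 isoforms were detected in cones and 87 in Müller glia. At the depth of ganglion cells, 207.1 were expected in bipolar cells and 242.8 in rods. Without the most counted isoform the shares of counts were 0.0796% for cones, 0.0737% for rods, 0.0629% for amacrine cells, 0.0559% for bipolar cells, 0.0518% for Müller glia and 0.0441% for ganglion cells. With 3 or more exons they were 0.00749%, 0.00860%, 0.0110%, 0.00760%, 0.00417% and 0.0107% in that order. The other 21 alternative values, for exon number, length, overlap, detection, shares and highest class, stayed within the limits set. Scalings of the columns by trimmed means or median ratios are not reported. No paired analysis was possible because each class is 1 column with no replicate number, and no replicate could be left out. In the ganglion cell column, the shallowest, a count of 0 allows up to 0.855 CPM, against 0.0541 CPM in rods.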

Other observations

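Isoforms outside the rule for named isoforms gave further class patterns, chosen after their values were seen. Prox1, a homeobox transcription factor, had an isoform skipping 3 exons with 332 of its 418 counts in bipolar cells and 71 in amacrine cells; it was 76.9% of 432 gene counts in bipolar cells and 69.6% of 102 in amacrine cells. Ralyl, an RNA-binding protein gene, had an isoform skipping 1 exon with 630 of 720 counts in amacrine cells, where the gene had 15453 counts. Srgn, a proteoglycan gene of blood cells, had 32 of 42 counts in Müller glia, the column that was also highest for all 6 microglial markers; their part in this value was not tested. Ndufb10 had a skipping isoform that took 44.2% of 616 gene counts in rods and 22.1% of 2038 in amacrine cells. Cyb561d1 had an isoform with 35 of 52 counts in ganglion cells, and Slc11a2, an iron transporter gene, one with 8 of 24 there.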
